A study of Mus musculus with 8 samples.

Results

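The Gimap genes encode GTPases of the immune-associated nucleotide-binding family. They were chosen by gene symbol: Gimap1, Gimap3, Gimap4, Gimap5, Gimap6, Gimap7, Gimap8 and Gimap9 each had a row in every library, 8 genes of 12133 listed in vitro and 12665 listed in vivo. All 8 passed the filter on low values in both systems. Their transcripts were measured by RNA sequencing of sorted mouse thymocytes in 4 groups of 2 libraries. The in vitro cells were CD4+CD8+ double-positive thymocytes stimulated for 24 h by antibodies to CD3 and CD28 fixed to the plate (8 µg/ml of each), from which the CD4-CD8- double-negative (DN) cells were then sorted. The in vivo cells were CD4-CD8-CD5+TCRb+ thymocytes sorted directly, the gate of the agonist-selected precursors of intestinal intraepithelial lymphocytes. In each system the libraries labelled WT carried the Bcl6fl/fl genotype and those labelled KO carried Bcl6fl/fl Cd4cre. The loxP-flanked Bcl6 alleles were therefore shared by all groups, and Cre driven by Cd4 regulatory elements was present only with the KO label. Cre from that driver acts from the double-positive stage onward. Ages of the mice, and whether replicates came from separate animals or cultures, are not given in the labels, so the p-values here measure no more than library-to-library spread, which may be technical.

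GIMAP proteins bind GTP through a shared domain and sit on the membranes of lysosomes, the endoplasmic reticulum, mitochondria and Golgi, depending on the member. They are best known for keeping resting lymphocytes alive: loss of Gimap5 or of Gimap1 leaves few mature T cells in the periphery. Several members become more abundant as thymocytes pass from the double-positive to the mature single-positive stage. BCL6, the factor whose gene the KO label says is deleted, is a zinc-finger transcriptional repressor.

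Total counts per library ranged from 14754440 to 23975636. Bcl6 itself had an FPKM (fragments per kilobase of gene, scaled to library depth, the authors' value) of 24.9 and 21.9 with the WT label in vitro and 64.6 and 61.0 with the KO label. In vivo these values were 11.5 and 13.9 for WT and 8.81 and 14.4 for KO. Gene-level values pool deleted and remaining exons, so they do not check the labels, and groups are named by their labels below. The T cell markers Cd3d, Cd3e, Cd3g, Cd247, Lck, Zap70, Thy1 and Cd5 were present in every library. Their summed FPKM was 1178 to 1416 over the 8 libraries, but single markers were not constant. Thy1 had an FPKM of 3.06 and 4.56 with the WT label in vitro and 20.89 and 18.01 with the KO label. In vivo it lay between 186 and 318. With the KO label 4 of these 8 markers were called higher and 1 lower in vitro (edgeR adjusted p under 0.05). Of all genes tested in vitro, 20.1% were called higher and 17.7% lower. In vivo none of the 8 was called, where 0.284% of all genes were called higher and 0.821% lower. The libraries of the 2 systems were made by different companies, so system and company cannot be told apart and levels are set side by side across systems without a test. In vivo KO replicate 1 stood apart in the myeloid gene Lyz2, with an FPKM of 109 against 10.7 to 25.6 in the other in vivo libraries. In bulk samples, fewer cells of a type and less RNA per cell cannot be told apart.

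The 8 genes form a single cluster on chromosome 6, from 48647234 to 48770851 of mm10, a span of 123.6 kb. In chromosomal order they are Gimap8, Gimap9, Gimap4, Gimap6, Gimap7, Gimap1, Gimap5 and Gimap3. Gimap6 (48701582 to 48708225) and Gimap3 (48764464 to 48770851) lie on the minus strand and the others on the plus strand, among them Gimap8 (48647234 to 48660875), Gimap4 (48684549 to 48692060) and Gimap5 (48746197 to 48754210). The stretches upstream of the 4 genes that rose in vitro are printed here because those genes moved together with the KO label. They come from RefSeq (GRCm38.p6, the mm10 build), run 5′ to 3′ on the strand of the gene, and end where the first annotated exon begins. Capitals mark CACCC or its complement GGGTG, the core that Krüppel-like factors such as KLF2 bind.

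Gimap4, chr6:48684328-48684548, plus strand: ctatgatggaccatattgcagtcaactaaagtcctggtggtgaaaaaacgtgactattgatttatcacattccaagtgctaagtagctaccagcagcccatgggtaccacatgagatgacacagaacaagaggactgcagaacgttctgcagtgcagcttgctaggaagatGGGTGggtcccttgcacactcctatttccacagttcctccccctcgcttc
Gimap3, chr6:48770852-48771101, minus strand: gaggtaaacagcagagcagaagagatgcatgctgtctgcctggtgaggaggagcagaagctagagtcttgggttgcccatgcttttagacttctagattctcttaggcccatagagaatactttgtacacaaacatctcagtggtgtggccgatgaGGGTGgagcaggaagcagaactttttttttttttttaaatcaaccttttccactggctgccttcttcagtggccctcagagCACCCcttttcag
Gimap5, chr6:48745947-48746196, plus strand: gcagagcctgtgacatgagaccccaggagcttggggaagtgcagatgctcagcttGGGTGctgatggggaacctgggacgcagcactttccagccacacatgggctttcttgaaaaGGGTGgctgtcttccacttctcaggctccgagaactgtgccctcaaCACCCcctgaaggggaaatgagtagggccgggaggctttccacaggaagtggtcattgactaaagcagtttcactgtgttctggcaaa
Gimap8, chr6:48646984-48647233, plus strand: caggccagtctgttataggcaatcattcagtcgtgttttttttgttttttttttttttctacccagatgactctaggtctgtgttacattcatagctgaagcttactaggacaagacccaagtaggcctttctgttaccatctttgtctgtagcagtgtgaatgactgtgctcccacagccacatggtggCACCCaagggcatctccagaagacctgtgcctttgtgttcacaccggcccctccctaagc

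Motifs were searched on both strands in the 250 bases before each RefSeq start site, 9 windows for the 8 members. CACCC was present in 6 of these 9 windows, belonging to 5 of the 8 members, against 52.0% of 32851 mouse windows of the same length. The 2 Gimap8 windows overlap and share 1 such site, and the site of Gimap9 lies in an annotated Gimap9 exon. The BCL6 consensus TTCCTAGAA was present in 1 window, that of the later of 2 Gimap8 start sites, against 0.347% of all windows. It ends 39 bases before that start, lies outside annotated exons and inside the Gimap8 gene, and is shown here in capitals with its flanks.

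Gimap8 site, chr6:48647304-48647332, plus strand: aacctctttcTTCCTAGAAacatttggaa

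These 9 letters also match the STAT consensus TTCNNNGAA, which was found in 2 of 9 member windows (Gimap8 and Gimap6) against 7.02% of all windows. The second BCL6 form TTCCTCGAA was in none of the member windows (0.0517% of all), and neither was TGGGAA, the core of the Notch partner RBPJ (21.6% of all). A match describes the letters of these windows and no measured binding.

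The in vitro libraries address how DN cells derived from stimulated thymocytes differ with Bcl6 deletion, as labelled. Of the 8 Gimap genes, 4 rose with the KO label and 4 did not pass the test, with log2 fold changes from 0.17 to 1.70 and a median of 0.47, against -0.0028 over all 9658 genes tested. Over all genes 20.1% rose and 17.7% fell (quasi-likelihood test of edgeR, adjusted p under 0.05). All 8 members were above 0, as were 49.7% of all genes, and 5 of 8 had an unadjusted p under 0.05, against 47.1% of all genes. Gimap4 rose most, then Gimap3, Gimap5 and Gimap8. The KO libraries lay above the WT libraries without overlap for 7 of the 8 genes, all but Gimap9, where 32.5% of all genes tested did so.

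Gimap4, a member linked to the survival and death of developing T cells, had an FPKM of 2.77 and 5.10 with the WT label and 10.95 and 13.5 with the KO label. Its counts were 122 and 153 against 357 and 538. Both KO libraries were above both WT libraries, and WT replicate 1 was the lowest of the 4. The log2 fold change was 1.70 (SE 0.23, n = 2 per group, edgeR adjusted p = 0.00021), and it lay between 1.29 and 2.18 when any 1 library was left out.

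Gimap3 is the closest relative of Gimap5 in the mouse, and both have been described as partners of BCL2-family proteins. Gimap3 had an FPKM of 11.98 and 15.2 with the WT label and 22.9 and 26.6 with the KO label. The groups did not overlap, and the log2 fold change was 0.90 (SE 0.12; edgeR adjusted p = 0.000232). Gimap5, the member whose loss causes lymphopenia in rodents, had an FPKM of 15.1 and 17.8 with the WT label and 25.5 and 22.5 with the KO label. Here too the KO libraries were the higher ones, by 0.58 on the log2 scale (SE 0.10; edgeR adjusted p = 0.00147). Gimap3 and Gimap5 also share exonic sequence: 7.52% of the 50-base words of Gimap3 transcripts and 4.53% of those of Gimap5 occur in another member, the most of any members, so reads from those stretches cannot be assigned between them. Of the other 6 members, none shared a 50-base word with another member.

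Gimap8, which carries several GTP-binding domains in tandem, had an FPKM of 35.7 and 44.0 with the WT label and 58.7 and 56.6 with the KO label. The log2 fold change was 0.56 (SE 0.10; edgeR adjusted p = 0.00152), with no overlap of the groups.

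The other 4 genes did not pass in vitro. Gimap6, described as a partner of the autophagy protein GABARAPL2 and the most abundant member in these cells, had an FPKM of 69.9 and 80.5 with the WT label and 93.9 and 83.4 with the KO label (log2 fold change 0.26, SE 0.10; edgeR adjusted p = 0.0564). Its KO libraries were above its WT libraries, but by less than for the 4 genes above. The call for Gimap6 depended on the tool and on single libraries: it passed with DESeq2 (adjusted p = 0.0434), with the FPKM filter at 5 (0.0416), without WT replicate 2 (0.0153) and without KO replicate 2 (0.0163), in a range of 0.000602 to 0.365 over all alternatives. Gimap1, required for the survival of mature T and B cells, had an FPKM of 50.6 and 55.6 with the WT label and 56.9 and 59.9 with the KO label (log2 fold change 0.17, SE 0.08). Gimap9 (0.18, SE 0.10) was the member whose groups overlapped, with an FPKM of 42.0 and 45.3 against 51.6 and 45.2. Gimap7, the scarcest, had 77 and 54 counts with the WT label and 85 and 78 with the KO label, an FPKM of 1.38 and 1.42 against 2.06 and 1.55. Its log2 fold change of 0.38 came with an SE of 0.23, the widest of the 8 genes in vitro.

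**Figure D1:**
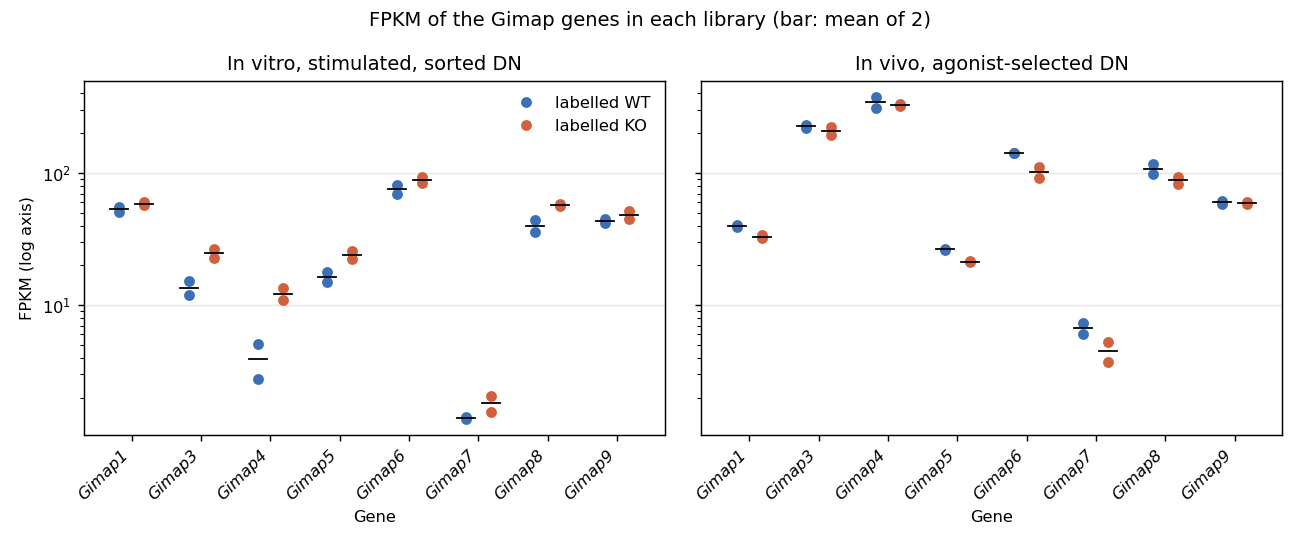
FPKM of each Gimap gene (log axis) in the 4 in vitro libraries (left) and the 4 in vivo libraries (right). Each point is 1 library, coloured by label, and each bar is the mean of 2. Gimap4 lies between 2.77 and 13.5 in vitro and between 309 and 376 in vivo, while Gimap1 stays between 32.0 and 59.9 in all 8 libraries.

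The in vivo libraries address that question in DN precursors taken straight from the thymus. None of the 8 Gimap genes passed with edgeR, where 0.821% of the 10227 genes tested fell and 0.284% rose. All 8 log2 fold changes were below 0, from -0.59 to -0.03, with a median of -0.29 against -0.0036 over all genes, of which 51.0% were below 0. At an unadjusted p under 0.05 the count was 4 of 8 (Gimap1, Gimap5, Gimap6 and Gimap7), against 14.1% of all genes. With DESeq2 1 passed (Gimap6, adjusted p = 0.0112), with limma on log2(FPKM + 1) 0, and with all 8 libraries in the edgeR fit 1 (Gimap6, adjusted p = 0.0495). With the replicate number as a further term in the edgeR fit 2 passed (Gimap6, adjusted p = 0.0163, and Gimap7, 0.0295). Nothing states that these numbers pair libraries. Over all genes DESeq2 called 245 lower and limma on log2(FPKM + 1) 54, against 84 in the main fit, each of 10227. The fit of all 8 libraries called 279 of 10015 lower, and that with the replicate number 471 of 10227. The KO libraries lay below the WT libraries without overlap for 5 genes (Gimap1, Gimap5, Gimap6, Gimap7 and Gimap8), where 21.4% of all genes tested did so.

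Gimap6 had an FPKM of 141 and 142 with the WT label in vivo and 92.2 and 111 with the KO label. The 2 WT libraries were alike and the 2 KO libraries were lower and further apart, a difference of -0.48 on the log2 scale (SE 0.12, n = 2 in each group; edgeR adjusted p = 0.145, from 0.0112 to 0.811 over the alternatives). Gimap7 had 234 and 276 counts against 132 and 195, an FPKM of 6.01 and 7.38 against 3.72 and 5.24, and a KO over WT value of -0.59 on the log2 scale (SE 0.22; edgeR adjusted p = 0.298). Gimap5 had an FPKM of 26.0 and 26.8 against 21.4 and 21.1 (-0.32, SE 0.09; edgeR adjusted p = 0.171). These 3 genes had the lowest KO-to-WT ratios of the family in vivo, and an adjusted p above the threshold does not show that they were unchanged.

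Gimap1 had an FPKM of 40.7 and 39.3 in vivo with the WT label and 32.0 and 33.95 with the KO label (log2 fold change -0.29, SE 0.09; edgeR adjusted p = 0.216). Gimap8 had 98.1 and 118 against 83.3 and 93.7 (-0.29, SE 0.13; edgeR adjusted p = 0.4). For both genes the KO libraries were the lower pair. When any 1 library was left out, the value for Gimap8 ran from -0.42 to -0.15, that for Gimap7 from -0.84 to -0.37 and that for Gimap6 from -0.61 to -0.36. Gimap3, Gimap4 and Gimap9 overlapped between labels. Gimap4, the member with the largest rise in vitro, had an in vivo FPKM of 376 and 309 with the WT label and 324 and 336 with the KO label (log2 fold change -0.06, SE 0.13). Gimap3 had 232 and 221 against 195 and 222 (-0.13, SE 0.11; from -0.21 to -0.04 when any 1 library was left out), and Gimap9 had 61.7 and 58.8 against 58.1 and 60.4 (-0.03, SE 0.09). Without WT replicate 1 the values for Gimap4 and Gimap9 turned to 0.09 and 0.01.

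Without KO replicate 1, the in vivo library with the high Lyz2 value, none of the 8 genes passed, all 8 log2 fold changes were below 0 and their median was -0.23. Markers of other cells were read in the same libraries. All 9 markers of double-positive thymocytes, among them Rag1, Rag2, Dntt, Cd4 and Cd8a, had a row in vivo, with a summed FPKM of 80.5 to 94.0 with the WT label and 131 to 146 with the KO label, without overlap. Cd4, whose protein the sort gate was set to lack, had an FPKM of 26.8 and 54.96 against 22.8 and 78.4, and Dntt had 14.3 and 8.76 against 62.1 and 29.4. The 8 markers of agonist-selected precursors summed to 689 to 705 against 563 to 650. Of these 1 rose and 1 fell, where 0.284% of all genes rose and 0.821% fell. Pdcd1 had an FPKM of 156 and 178 against 77.2 and 71.5, and Ccr9 had 12.6 and 14.7 against 26.5 and 34.1. All 8 B cell markers had a row, with a summed FPKM of 44.8 to 81.3 with the WT label and 36.1 to 61.8 with the KO label, most of it Blk in 3 of the 4 libraries, a gene that gamma delta T cells also express. For 6 of 8 myeloid and dendritic markers with a row the sum was 114 to 183 against 200.01 to 349, and Cd14 and Siglech had no row. Fcer1g was the largest part of this sum in every in vivo library, at 110 and 64.5 against 187 and 146. In KO replicate 2 Lyz2 (15.7), Csf1r (0.725) and Itgax (0.715) lay between the 2 WT libraries. There Fcer1g and Itgam (0.224) lay above both WT libraries and Cst3 (36.2) below them. All 6 markers of NK or innate-like T cells had a row in vivo, with a summed FPKM of 120 to 178 against 171 to 200. In vitro only Zbtb16 of these had a row, at 0.331 to 1.03. For 3 of 4 gamma delta T markers with a row, Blk among them, the sum was 81.8 to 111 against 68.1 to 110 in vivo. Single markers in that sum went opposite ways. Sox13 had an in vivo FPKM of 21.0 and 15.4 with the WT label and 48.4 and 31.4 with the KO label. Blk had 65.5 and 39.9 against 34.2 and 15.8, and Il17rb overlapped. In vitro the sum of the gamma delta markers was 3.18 to 5.53. None of the double-positive, B cell, myeloid, innate-like or gamma delta markers tested passed in vivo, and the part of these cells in the Gimap values was not tested.

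**Figure D2:**
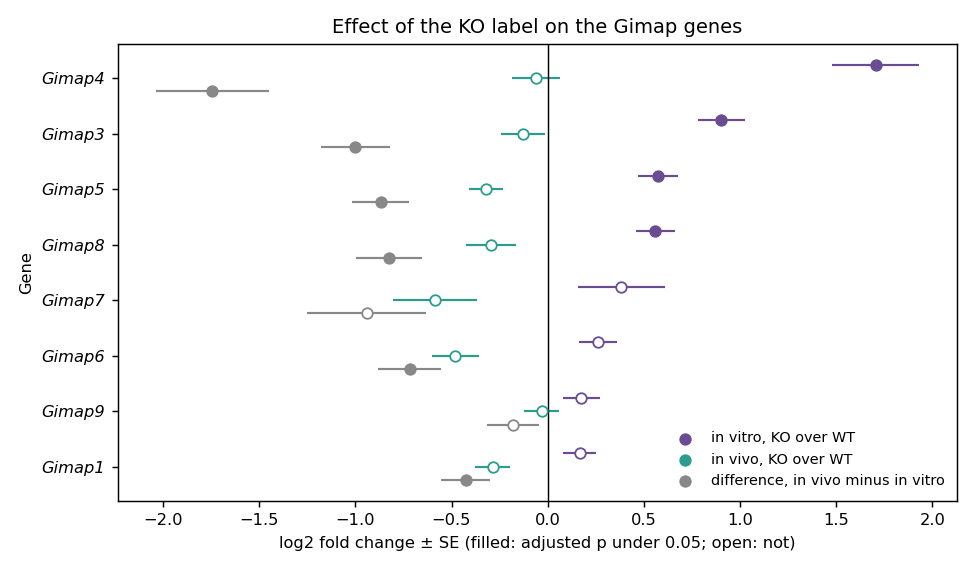
Log2 fold change of libraries labelled KO over WT for each Gimap gene in vitro and in vivo, and the difference of the 2 effects (in vivo minus in vitro). Horizontal bars are ± 1 SE, filled points have an edgeR adjusted p under 0.05 and open points do not. All in vitro points lie right of 0 and all in vivo points left of it, and the difference is filled for 6 of 8 genes.

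Whether the effect of the KO label differed between the systems was tested in 1 edgeR fit of all 8 libraries. It differed for 6 of the 8 Gimap genes, each with a lower effect in vivo, where 9.81% of the 9364 genes tested were called in that direction and 6.57% in the other. All 8 differences were below 0, against 50.3% of all genes, and 7 of 8 had an unadjusted p under 0.05, against 32.2%. Gimap4 differed most, by -1.74 on the log2 scale (SE 0.29; edgeR adjusted p = 0.00381). Gimap3 differed by -0.9995 (SE 0.18; adjusted p = 0.00507), Gimap5 by -0.87 (SE 0.15; 0.00373), Gimap8 by -0.82 (SE 0.17; 0.00959), Gimap6 by -0.72 (SE 0.16; 0.0148) and Gimap1 by -0.43 (SE 0.13; 0.0427). Gimap7 (-0.94, SE 0.31; adjusted p = 0.0621) and Gimap9 (-0.18, SE 0.14; adjusted p = 0.395) did not pass. The count fell to 3 (Gimap3, Gimap4 and Gimap5) without in vitro WT replicate 1. Gimap1 also lost its call without any other single library except in vivo WT replicate 2, and Gimap6 without in vitro KO replicate 1 or in vivo KO replicate 1.

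Levels within the family were ordered differently in the 2 systems. Under the WT label in vitro the order by mean FPKM was Gimap6 (75.2), Gimap1 (53.1), Gimap9 (43.6), Gimap8 (39.9), Gimap5 (16.4), Gimap3 (13.6), Gimap4 (3.93) and Gimap7 (1.40). Gimap9 and Gimap8 overlapped between libraries, as did Gimap5 and Gimap3, and the other neighbours in this order did not. Under the KO label in vitro Gimap8 (57.6) stood level with Gimap1 (58.4), and Gimap3 (24.7) with Gimap5 (24.0), each pair overlapping, with Gimap9 (48.4) now below Gimap8. Under the WT label in vivo the order was Gimap4 (342), Gimap3 (226), Gimap6 (141), Gimap8 (108), Gimap9 (60.2), Gimap1 (40.03), Gimap5 (26.4) and Gimap7 (6.70), with no overlap between neighbours. The KO label in vivo kept that order, and only Gimap6 (102) and Gimap8 (88.5) overlapped.

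Gimap4 thus stood seventh of the 8 genes in every in vitro library and first in every in vivo library. In vivo it was among the most abundant transcripts of the cell, at the 99.6 or 99.7 percentile of listed genes in each library, while with the WT label in vitro it was at the 33.2 and 43.4 percentiles and with the KO label at 62.3 and 67.9. Gimap3 moved likewise, from the 64.4 and 70.8 percentiles with the WT label in vitro to above the 99 percentile in all in vivo libraries. Gimap1 stood between the 88.0 and 94.2 percentiles in all 8 libraries.

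The ratio of mean WT FPKM in vivo to in vitro was 87.0 for Gimap4, and only 6 of 9363 genes tested in both systems had a larger one. It was 16.7 for Gimap3, with 58 genes above it, 4.78 for Gimap7 and 2.70 for Gimap8. Over all these genes the median ratio was 0.993, with a 10th percentile of 0.488 and a 90th of 2.17. Gimap6 (1.88), Gimap5 (1.61), Gimap9 (1.38) and Gimap1 (0.754) lay within that range. These ratios share the in vitro WT libraries with the KO effects above, so the 2 sets of values are given side by side and no relation between them was computed.

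The FPKM of 1 member relative to another within a library does not depend on how libraries are scaled. Gimap4 was 0.0547 and 0.0917 times Gimap1 with the WT label in vitro and 0.192 and 0.225 times with the KO label. In vivo it was 9.22 and 7.85 times Gimap1 with the WT label and 10.1 and 9.89 times with the KO label. Gimap3 was 0.793 and 0.852 times Gimap5 with the WT label in vitro, 0.895 and 1.18 times with the KO label, and 8.24 to 10.5 times in vivo. Within the in vitro system both ratios were higher in the KO libraries than in the WT libraries.

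All 8 genes together summed to an FPKM of 229 and 265 with the WT label in vitro and 322 and 309 with the KO label, with no overlap. In vivo the sum was 981 and 921 against 809 and 884, again without overlap and with the labels in the other order. As shares of all counted reads, the members took 0.0704% and 0.0851% with the WT label in vitro, 0.105% and 0.0987% with the KO label, and 0.209% to 0.26% in vivo. Gimap6 made up 27.0% to 30.5% of the summed FPKM in vitro and 11.4% to 15.4% in vivo. Gimap4 made up 1.21% to 4.36% in vitro and 33.5% to 40.02% in vivo.

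**Figure D3:**
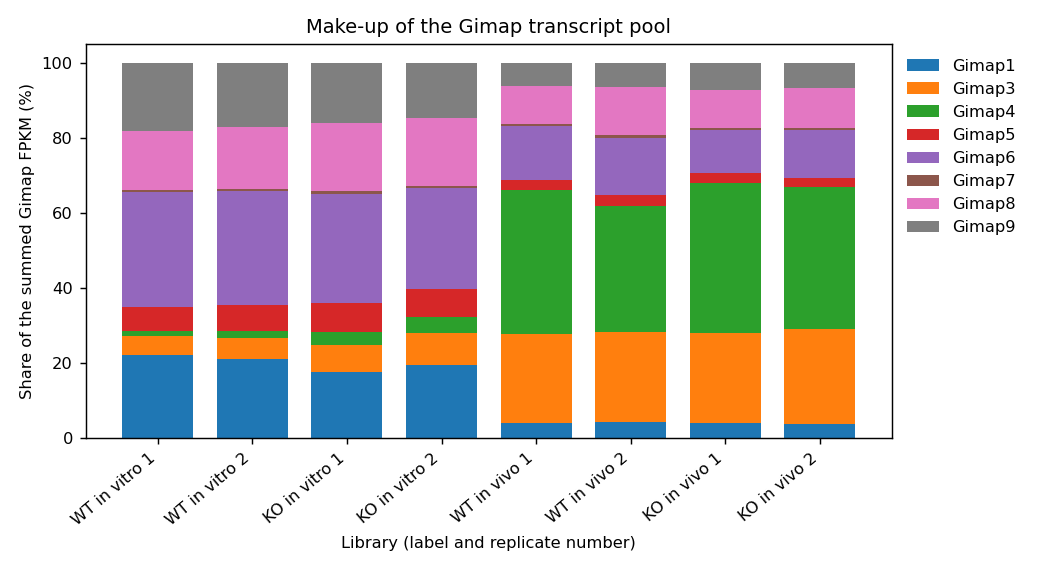
Share of the summed Gimap FPKM (vertical axis, percent) taken by each of the 8 genes in each library (horizontal axis). Gimap4 takes 1.21% to 4.36% of each in vitro bar and 33.5% to 40.02% of each in vivo bar, and Gimap3 takes 5.22% to 8.59% and 23.6% to 25.1%.

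The nearest genes around the cluster give a view of its edges. Of the 5 nearest listed genes on each side, 5 of 10 were tested in vitro. Of these Repin1, a zinc-finger gene upstream of Gimap8, fell (log2 fold change -0.41, SE 0.11; edgeR adjusted p = 0.0117), and Lrrc61, Zfp775, Malsu1 and Igf2bp3 did not pass (-0.25 to 0.21). In vivo all 10 were tested and 1 rose, Sspo (1.14, SE 0.16; edgeR adjusted p = 0.0393), from an FPKM of 0.558 and 0.501 to 1.10 and 1.25. Tmem176a and Tmem176b, the neighbours past Gimap3, had log2 fold changes of -1.25 (SE 0.34) and -0.92 (SE 0.39) in vivo and did not pass. They were below the filter in vitro, with an FPKM of at most 0.192 and 0.486. For none of the 5 neighbours tested in both systems did the effect of the label differ between systems (edgeR). At an unadjusted p under 0.05 the count was 1 of 5 (Lrrc61), against 32.2% of all genes. Shares of all genes called were 20.1% higher and 17.7% lower in vitro, and 0.284% and 0.821% in vivo. For the difference they were 6.57% higher and 9.81% lower.

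Inside the cluster 1 further gene had a row, Gm28053, an annotated protein-coding gene that runs from 48718607 to 48752644 across Gimap7, Gimap1 and Gimap5. Of its 989 exonic bases 43.7% are also exonic in a Gimap gene, and it covers 6.44% of the exonic bases of Gimap1, 3.69% of Gimap5 and 3.48% of Gimap7. It had 18 and 14 counts with the WT label in vitro and 23 and 26 with the KO label, and 14 to 30 in vivo. Its log2 fold changes were 0.67 (SE 0.34) and -0.63 (SE 0.37) and did not pass. How reads in the overlap were assigned is not given in the sources used here, so the counts of these 3 members may lack some reads. Gimap1 also shares 34.02% of its 50-base words with other genes, among them the antisense Gimap1os, and without a stated strand setting reads of the pair cannot be told apart.

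**Figure D4:**
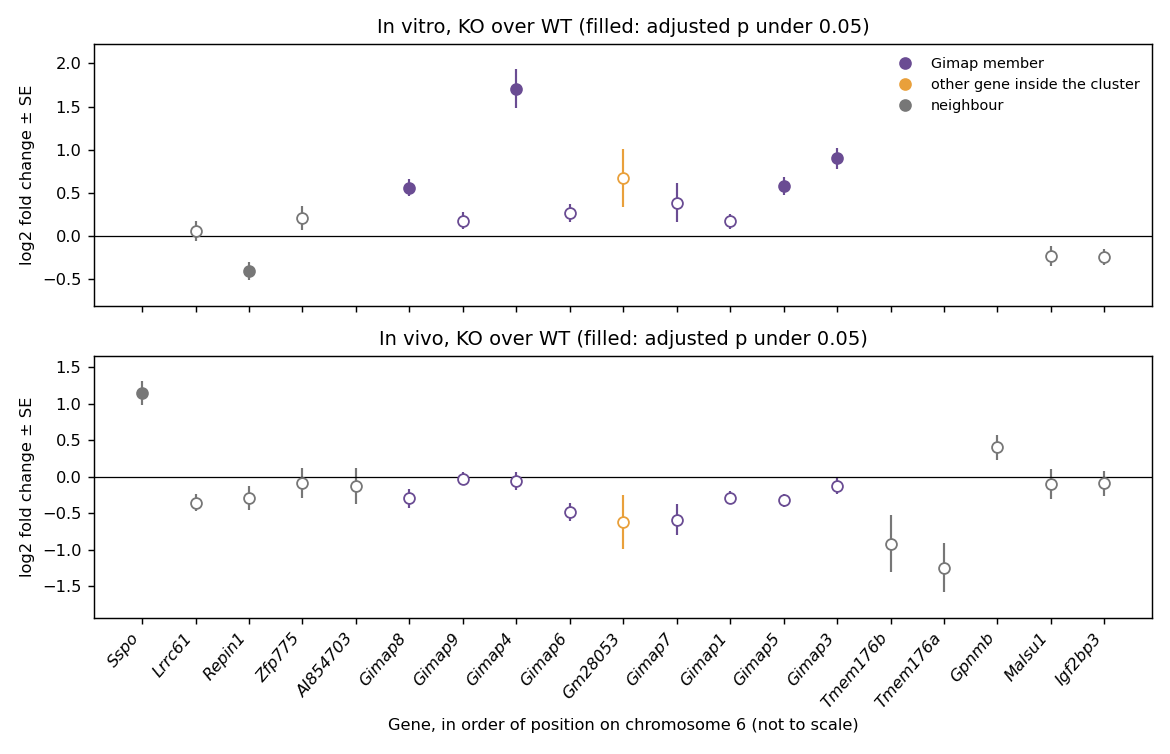
Log2 fold change ± SE of libraries labelled KO over WT for the Gimap genes, the further gene inside the cluster and the 5 nearest listed genes on each side, in chromosomal order, in vitro (top) and in vivo (bottom). Filled points have an edgeR adjusted p under 0.05; genes below the filter have no point. In vitro the filled points above 0 are Gimap8, Gimap4, Gimap5 and Gimap3, and the filled neighbour is Repin1, below 0.

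Genes named for work with GIMAP proteins were read beside them. Of 15 genes for BCL2-family proteins, autophagy adaptors and other described partners, 2 rose and 2 fell in vitro. Such counts are near the shares of all genes, 20.1% and 17.7%. The median log2 fold change of the 15 was 0.08, and 6 had an unadjusted p under 0.05, against 47.1% of all genes. Bcl2, the survival factor, rose from an FPKM of 7.92 and 9.04 to 17.6 and 14.8 (log2 fold change 0.96, SE 0.10; edgeR adjusted p = 5.12e-05). Gabarapl2, the adaptor described as a GIMAP6 partner, rose by 0.52 (SE 0.09), from 16.2 and 17.6 to 23.8 and 23.7. Its relative Gabarapl1 fell by 0.54 (SE 0.10) and Bid, a pro-apoptotic BCL2 relative, fell by 0.50 (SE 0.10). In vivo none of the 15 passed with edgeR (2 at an unadjusted p under 0.05, where 14.1% of all genes had one). The effect on Bcl2 was lower in vivo than in vitro by -1.01 (SE 0.21; edgeR adjusted p = 0.00966), the only 1 of the 15 called.

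Of 16 genes of quiescence and maturation in naive T cells, 11 rose and none fell in vitro, where 20.1% of all genes rose and 17.7% fell, with a median of 1.07. S1pr1 (log2 fold change 2.40, SE 0.14), Klf2 (2.23, SE 0.12) and Il7r (1.93, SE 0.18) changed most. All 3 exceeded the rise of Gimap4. In vivo none of the 16 passed with edgeR (4 at an unadjusted p under 0.05, against 14.1% of all genes), with a median of 0.04, and the effect was lower in vivo than in vitro for 8 of 16 and higher for none, against 9.81% and 6.57% of all genes.

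A second family of immune GTPases, the interferon-inducible IRG and GBP proteins, was compared with the Gimap genes. In vitro 9 of 10 tested rose and none fell (20.1% and 17.7% of all genes), with a median of 0.96, among them Gbp2 (1.39, SE 0.14) and Irgm1 (1.03, SE 0.17). In vivo none of 14 passed with edgeR (4 at an unadjusted p under 0.05, against 14.1% of all genes). Of the 14 log2 fold changes 13 were above 0 (49.0% of all genes), with a median of 0.23, where all 8 of the Gimap genes were below 0. The effect was lower in vivo than in vitro for 7 of the 10 tested in both systems and higher for 1 (9.81% and 6.57% of all genes). Their median difference was -0.80, against -0.85 for the Gimap genes, of which 6 of 8 were called lower. Small GTPases outside both families went both ways in vitro: of 19, 6 rose and 4 fell, with a median of 0.05, where 20.1% of all genes rose and 17.7% fell. Rab27a, a GTPase of secretory granules, rose by 0.85 (SE 0.10) and Rap2b fell by 0.77 (SE 0.12). In vivo none of the 19 passed with edgeR (3 at an unadjusted p under 0.05, where 14.1% of all genes had one). For 2 of the 19 the effect was lower in vivo than in vitro and for 3 it was higher (9.81% and 6.57% of all genes).

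Endothelial cells and B cells also express Gimap genes, so their markers were read in the in vitro libraries, beside those of thymocyte stages. Of 9 endothelial markers 3 had a row, and Cdh5, Kdr, Tek, Cldn5, Emcn and Tie1 had none. Their summed FPKM was 11.8 to 13.9 with the WT label and 21.9 to 22.1 with the KO label, nearly all of it Pecam1, which T cells also express, and Esam was at 0.24 or less. Of 8 B cell markers 3 had a row, with a sum of 2.96 to 3.18 against 5.20 to 5.99. Cd79a and Cd79b rose, while Ms4a1, Ebf1, Pax5 and Cd22 were among those with no row. Of the double-positive markers 8 of 9 had a row and 6 were tested, of which Cd4, Cd8b1 and Arpp21 rose and Dntt and Cd8a fell, with a sum of 30.2 to 35.5 against 35.0 to 38.3. Cd4 went from 6.84 and 6.98 to 10.9 and 11.4, and Dntt from 4.74 and 5.39 to 2.58 and 2.35. The sum for the markers of agonist-selected precursors was 1021 to 1096 against 677 to 752, where 3 of 8 rose and 3 fell. Over all genes 20.1% rose and 17.7% fell. Pdcd1, Tnfrsf9, Nr4a1 and Tnfrsf18 were lower in both KO libraries, Itgae, Itgb7 and Ccr9 were higher, and Cd69 overlapped. Pdcd1 went from 547 and 531 to 248 and 298, and Ccr9 from 16.6 and 21.8 to 79.9 and 66.3. The part of these markers in the Gimap values was not tested.

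The profile of the family over the 8 libraries was summarised as the mean of its members' centred log2 CPM (counts scaled to library depth). The 5 other genes most like it were Ssh1, a cofilin phosphatase (Pearson r = 0.997), Pde4b, a cyclic AMP phosphodiesterase (0.996), Thtpa (0.995), Aim2, a sensor of cytosolic DNA (0.995), and Fam53b (0.995). The points share the contrast of systems and companies, and 893 of 9356 other genes had an r of at least 0.95, so such values were common. Gimap4 and Gimap3, the members whose levels span the widest range, weigh most in that mean. Not all members followed it: r to the mean was -0.80 for Gimap1, 0.72 for Gimap5 and 0.91 for Gimap6. It was 0.97 for Gimap7 and Gimap9 and 0.99 for Gimap3, Gimap4 and Gimap8. Ssh1 had an FPKM of 2.05 and 2.23 with the WT label in vitro, 3.31 and 3.29 with the KO label, and 8.11 to 9.90 in vivo.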

How the data were processed

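The authors deposited, for every library, whole-number counts per gene beside FPKM values. Tools named by the submitters' processing notes are featureCounts (Subread), RSEM, Bowtie2, DESeq2 and Trim Galore 0.4.4, on mm10, without their order. For the annotation and strand setting, no source used here gives a value. Low rows had been left out before deposit, since every listed gene averaged at least 5 counts over its 4 libraries. Libraries were grouped by their titles.

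Counts were tested with the quasi-likelihood test of edgeR 4.0.16 (R 4.3.3, TMM), on the 4 libraries of a system and, for the difference, on all 8. A gene entered when 2 or more libraries had an FPKM of 1 or above, and p-values were adjusted over all of them (Benjamini-Hochberg, threshold 0.05, two-sided). Standard errors (SE) were the log2 fold change, without its sign, divided by the root of the F statistic. Alternatives were other scalings, filters, DESeq2 1.42.0, limma 3.58.1 on log2(FPKM + 1) or log2(FPKM + 0.1), a replicate block and leaving out libraries. Counts of replicates were further apart than sampling alone gives (chi-square per degree of freedom 9.32 to 18.9). Coordinates, exons and shared words come from the GENCODE annotation given for mm10, and 11994 of 12133 and 12534 of 12665 symbols matched it.

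All 8 members are named in each comparison. Also named are the 5 genes most like the family, the 5 nearest listed genes on each side of the cluster, any further gene inside it, and up to 4 called genes of each list, of which fewer are printed for some (a few items are not reported here). Markers come from fixed lists. Lyz2 was singled out after its values were seen. The members and lists were chosen with earlier results of these data known.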

Additional observations from a re-analysis of the deposited data

Results flagged for a closer look

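The effect of the KO label differed between the in vivo and in vitro systems, by the edgeR test of the difference itself, for 6 of the 8 Gimap genes, all lower in vivo, where 9.81% of the 9364 genes tested were called lower and 6.57% higher. Without in vitro WT replicate 1 the count was 3. The difference, in vivo minus in vitro on the log2 scale, was -0.43 for Gimap1 (edgeR adjusted p = 0.0427), -0.9995 for Gimap3 (0.00507), -1.74 for Gimap4 (0.00381), -0.87 for Gimap5 (0.00373), -0.72 for Gimap6 (0.0148) and -0.82 for Gimap8 (0.00959). None of these genes passed in vivo alone, and Gimap1 and Gimap6 did not pass in vitro alone. With 2 libraries per group, no group could be tested for an outlying library.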

How the results depend on the processing

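In vitro all 8 Gimap genes kept their direction under every alternative run, and Gimap3, Gimap4, Gimap5 and Gimap8 kept their calls. The count of members that rose was 4 to 6, and 4 to 5 when any 1 library was left out. In vivo the count that fell was 0, but 1 with DESeq2, 2 with the replicate block (Gimap6, adjusted p = 0.0163, and Gimap7, 0.0295) and 1 with all 8 libraries in the fit, and 0 when any 1 library was left out. Over all genes in vivo DESeq2 called 245 lower, the block 471 and the fit of all 8 libraries 279, against 84 in the main fit. When any 1 library was left out, Gimap4 ran from -0.19 to 0.0893 and Gimap9 from -0.0604 to 0.0070, and both reversed without WT replicate 1. The cause was not tested. For the difference between systems the count was 6, and 3 to 6 when any 1 library was left out. Gimap3, Gimap4 and Gimap5 kept their calls in all 16 alternatives. Gimap1 lost its call without a filter on low values (adjusted p = 0.063) and with the replicate block (0.0556), and Gimap7 passed with limma (0.0483 and 0.0489), with the block (0.0215), without in vivo WT replicate 1 (0.0486) and without in vivo KO replicate 2 (0.0284). With the FPKM filter at 5, Gimap7 was not tested in vitro or for the difference. Scalings moved the median of all genes by less than 0.1 on the log2 scale.

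The replicate numbers are shared between labels but nothing states that they pair libraries. Deviations of same-numbered libraries correlated at -0.31 over genes in vitro and 0.46 in vivo. With the replicate block 4 members were called in vitro and 6 for the difference, and over all genes 3159 in vitro and 1078 in vivo, against 3649 and 113 without it. With the numbers crossed in vitro, chosen after seeing the data together with scaling by library totals, 6 members and 4997 genes were called. Depth limits Gimap7 most, at 54 to 85 counts per library in vitro.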
